A study of Mus musculus with 81 samples.

Results

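Long terminal repeat (LTR) elements are the retrovirus-like repeats of the mouse genome, and the windows of methylated DNA that lie inside them, away from gene starts, were examined in fetal testicular somatic cells. A window was 100 bp long. It was counted as an LTR window where it overlapped an LTR locus of the deposited table of endogenous retrovirus (mERV) expression by at least 1 base and lay more than 1000 bp from every transcript start of the GRCm38 annotation. By this rule 20875 of the 154773 windows of the F1 table (13.49%) and 22176 of the 164382 windows of the F3 table (13.49%) were LTR windows. A further 9980 F1 windows and 10241 F3 windows lay within 1000 bp of a transcript start and are called promoter windows here, and the remaining 123918 and 131965 are called other windows. Of the 970384 LTR loci of the table, 18227 held an F1 window and 19192 held an F3 window. The name of an element was the text before the first colon of its identifier, and 584 (F1) and 585 (F3) of 680 such names, called species here, had at least 1 window.

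The cells came from E18.5 testes of the OG2 strain, in which an EGFP transgene driven by a Pou5f1 promoter with its distal enhancer marks the germ cells. Pregnant F0 dams had received 50 nM tributyltin (TBT) or the solvent DMSO in their drinking water. All MBD libraries came from the P6 gate, which holds EGFP-negative somatic cells of mixed type. Methylated DNA was captured from sonicated DNA with a methyl-CpG binding domain (MBD) protein in 3 DMSO and 4 TBT libraries of F1 fetuses, which were exposed in utero, and in 5 DMSO and 7 TBT libraries of F3 fetuses, which came from the exposed F0 dams by way of other F1 animals and were never exposed directly. P6 RNA was read by poly(A) priming in 5 DMSO and 7 TBT libraries of F1 and in 4 DMSO and 5 TBT libraries of F3. The study calls its MBD samples independently generated and speaks of separate litters for F1 libraries it displays, but the labels do not tie single libraries to animals or litters, so all p-values measure the spread between these libraries, part of which may be technical.

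A complete LTR element carries an internal part with the viral genes, written with the ending int, between a pair of identical repeats that hold its promoter. Recombination between the repeats leaves many solo LTRs behind. In somatic cells most LTR elements are silenced by methylation of CpG sites together with repressive histone marks laid down under KRAB zinc finger proteins and TRIM28. Intracisternal A particles (IAP) and ETn/MusD elements are young, still mobile and rich in CpG, and IAP is known to keep much of its methylation when the rest of the genome is demethylated. MT and ORR1 elements belong to the older MaLR group, whose members have lost many CpG sites, and MERVL is best known for its expression in the early embryo. Capture by an MBD protein rises with the number of methylated CpG in a fragment, so a count joins methylation and CpG number, and a fragment can bring its count to a neighbouring window with no CpG of its own.

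The windows with the highest counts are shown first, because they carry the deepest measurements. All sequences are of the plus strand of GRCm38 (mm10), written 5′ to 3′, with each CpG in capitals.
RLTR44-int, F1, chr11:34544901-34545000: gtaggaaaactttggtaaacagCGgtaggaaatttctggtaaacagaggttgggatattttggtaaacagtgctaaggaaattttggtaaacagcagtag
RLTR44-int, F1, chr11:34545001-34545100: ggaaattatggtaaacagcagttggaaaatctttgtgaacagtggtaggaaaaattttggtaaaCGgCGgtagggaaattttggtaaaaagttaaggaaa
MTA_Mm, F1, chr4:3089301-3089400: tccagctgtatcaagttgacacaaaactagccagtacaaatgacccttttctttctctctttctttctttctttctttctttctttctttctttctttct
RLTR11A, F3, chr15:75086901-75087000: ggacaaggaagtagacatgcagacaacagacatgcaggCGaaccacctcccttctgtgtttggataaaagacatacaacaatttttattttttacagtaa
MTD, F3, chr11:3173501-3173600: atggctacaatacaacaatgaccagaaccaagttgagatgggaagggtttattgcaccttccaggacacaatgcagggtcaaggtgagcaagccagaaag
RMER19C, F3, chr1:85623901-85624000: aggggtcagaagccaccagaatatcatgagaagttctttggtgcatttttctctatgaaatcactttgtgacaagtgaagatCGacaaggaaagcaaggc

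None of these 6 windows held more than 2 CpG. For contrast, the next sequences show the range of CpG density across species and the 2 IAP windows with the smallest p for a higher count in TBT. The first 4 were chosen after their values were seen, as windows near the usual CpG number and the median level of their species.
IAPEY2_LTR, F1, chr6:42988601-42988700: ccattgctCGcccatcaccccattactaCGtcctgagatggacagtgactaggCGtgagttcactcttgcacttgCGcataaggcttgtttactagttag
IAPLTR2b, F1, chr8:69500501-69500600: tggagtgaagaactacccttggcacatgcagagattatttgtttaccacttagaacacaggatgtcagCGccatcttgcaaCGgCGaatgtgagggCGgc
IAPEz-int, F1, chr2:157623801-157623900: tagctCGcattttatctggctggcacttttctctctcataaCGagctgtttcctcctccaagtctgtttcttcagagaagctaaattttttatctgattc
MTD, F1, chr17:92731801-92731900: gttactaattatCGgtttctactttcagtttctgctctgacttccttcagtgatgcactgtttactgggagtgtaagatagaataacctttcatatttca
IAPEz-int, F1, chr10:47681101-47681200: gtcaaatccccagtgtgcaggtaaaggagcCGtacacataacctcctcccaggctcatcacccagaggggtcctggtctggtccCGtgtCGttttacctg
IAPLTR1_Mm, F3, chr7:89568601-89568700: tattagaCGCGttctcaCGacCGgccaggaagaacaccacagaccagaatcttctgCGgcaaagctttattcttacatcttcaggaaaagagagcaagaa

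The 4 CpG of the IAPEY2_LTR window went with a mean of 29.8 CPM, the usual scaling of counts to a fixed library total, over the 7 F1 libraries, and its raw counts were 20, 22 and 36 in DMSO libraries and 43, 44, 28 and 59 in TBT libraries. The IAPLTR2b window, also with 4 CpG, had 33, 19 and 32 counts in DMSO and 37, 42, 19 and 47 in TBT. The IAPEz-int window on chromosome 2 has 2 CpG, yet had only 0, 2 and 1 counts in DMSO and 0, 1, 1 and 2 in TBT. All 3 hold a stretch of 50 bases that is repeated in the genome, with 55 copies for the IAPEY2_LTR window, 202 for the IAPLTR2b window and 56 for the IAPEz-int window. The MTD window, with 1 CpG and a sequence that occurs once, had 4, 2 and 8 counts in DMSO and 10, 11, 5 and 15 in TBT. Because these 4 windows were chosen by their levels, no relation of level to CpG number or copy number is read from them.

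Most LTR windows were shallow. The median window held 5.71 counts per library in F1 and 4.83 in F3, and 344 F1 windows (1.65%) and 304 F3 windows (1.37%) were at 0 in every library. Table totals were 938756, 701493 and 926166 in the F1 DMSO libraries and 1500337, 1695521, 887213 and 1913353 in F1 TBT libraries 4 to 7, so that TBT library 6 alone was as shallow as the DMSO libraries, while F3 totals lay between 1105120 and 1556376. In F3 the mean CpG number per counted read ranged from 1.238 (TBT library 8) to 1.545 (TBT library 10), which brackets the DMSO range of 1.354 to 1.489, so F3 libraries differed in the share of counts from CpG-rich windows. Germ cell markers, summed over LTR loci inside 9 of 11 marker genes, were at 16.9 to 26.3 CPM in F1 DMSO, 21.5 to 40.2 in F1 TBT, 4.95 to 224.7 in F3 DMSO and 11.3 to 20.6 in F3 TBT P6 RNA, with Tex101 at 0 throughout, against 8252 to 19560 CPM in F1 and 126.3 to 16310 CPM in F3 germ cells, so that the highest F3 P6 library overlapped the lowest F3 germ cell library. The 4 Sertoli cell genes that hold an LTR locus reached 637 to 971 CPM in the P6 libraries of both generations.

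LTR windows differed in makeup from the rest of the table. They held no CpG in 52.27% (F1) and 51.49% (F3) of cases and 0.837 and 0.848 CpG on average, compared with 0.738 and 0.732 in other windows and 1.77 and 1.78 in promoter windows. Their GC content was 43.21% and 43.28%, above the 39.77% and 39.68% of other windows. Of the F1 LTR windows 13655 lay outside genes, 6900 in introns and 320 in exons, and of the F3 LTR windows 14762, 7085 and 329. Internal parts of elements held 5067 F1 windows (24.27%) and 5356 F3 windows (24.15%). The sequence TGCCGC, the core that the zinc finger protein ZFP57 binds when methylated and which itself holds a CpG, was searched on both strands and stood in 205 F1 (0.982%) and 215 F3 (0.970%) LTR windows, against 0.451% and 0.405% of other windows and 1.56% and 1.66% of promoter windows of the same length. A match describes the letters and not a bound site.

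The level of LTR windows rose with the number of CpG and stayed high in the CpG-densest windows, where promoter windows were low. In F1 DMSO libraries the mean was 4.28 ± 0.14 CPM per window (SD, n = 3) without CpG, 6.72 ± 0.06 with 1 CpG, 10.1 ± 0.35 with 2, 13.7 ± 1.09 with 4 and 17.5 ± 1.63 with 7 or more. The last class held 102 LTR windows. In the 551 F1 promoter windows of that class the mean was 3.398 ± 0.16, below the level of LTR windows without CpG. F3 DMSO libraries gave 3.53 ± 0.16 (SD, n = 5) without CpG, 6.52 ± 0.07 with 1 CpG, 16.7 ± 1.22 with 4, 15.6 ± 1.58 with 5, 20.8 ± 2.45 with 6 and 19.2 ± 2.09 with 7 or more, against 2.85 ± 0.05 in promoter windows with 7 or more. Other windows with 7 or more CpG had 14.45 ± 1.59 CPM in F1 and 15.73 ± 1.36 in F3, down from 16.7 and 19.4 with 5 CpG. Ranges of DMSO and TBT libraries can be compared at the top class, where TBT had 18.2 ± 1.29 (SD, n = 4) in F1 and 21.7 ± 4.59 (SD, n = 7) in F3, within the spread of the libraries.

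**Figure D1:**
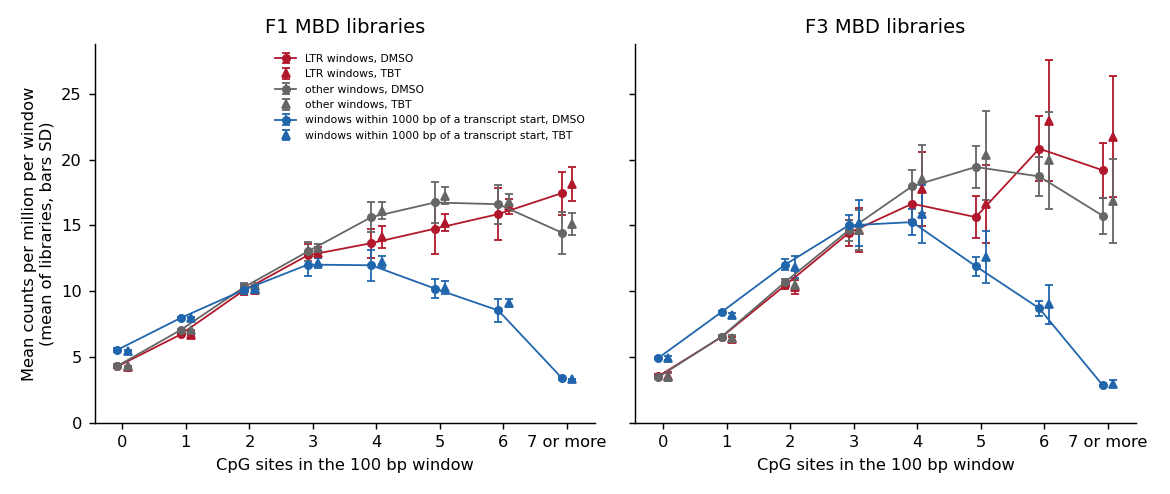
Mean MBD level in CPM per 100 bp window (vertical axis) by the number of CpG in the window (horizontal axis) for LTR, other and promoter windows of F1 and F3, with SD over libraries. LTR windows climbed from 4.28 (F1) and 3.53 CPM (F3) without CpG to 17.5 and 19.2 at 7 or more, with a dip at 5 CpG in F3. Other windows peaked at 5 CpG (16.7 and 19.4) and fell to 14.45 and 15.73, and promoter windows fell back further, to 3.398 (F1) and 2.85 CPM (F3).

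The part of a gene a window lay in moved the level little. Among LTR windows with 1 CpG the DMSO mean was 6.52 CPM outside genes, 7.08 in introns and 7.65 in exons of F1, and 6.35, 6.82 and 7.503 in F3. With 3 to 6 CpG, windows holding TGCCGC had 14.50 CPM (95 windows) and those without it 13.34 (1546 windows) in F1, whereas in F3 those with it were at 14.73 (94 windows) and those without it at 15.55 (1640 windows). The order of the TGCCGC classes thus turned between the generations.

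How often a sequence recurs in the genome went with a lower level at the extreme. Windows were classed by the largest number of exact genomic copies of 3 stretches of 50 bases taken along them, and 77.71% (F1) and 77.96% (F3) of LTR windows were single-copy, that is, each stretch occurred once. DMSO means were 6.38 CPM for single-copy windows, 7.62 with 2 to 10 copies, 7.56 with 11 to 100 and 4.56 with more than 100 in F1, and 5.97, 8.10, 8.24 and 5.09 in F3. With CpG number held at 2, the single-copy windows stood at 10.8 CPM and those of more than 100 copies at 4.96 in F1, and at 10.99 and 4.96 in F3. How reads with several matches were treated is not given in the sources used here, and its part in these levels was not tested.

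IAP elements showed both ends of this range. The 135 single-copy IAP windows of F1 had 17.8 ± 1.27 CPM in DMSO libraries (SD, n = 3), whereas the 751 IAP windows with more than 100 copies had 4.58 ± 0.51. In F3, 132 single-copy IAP windows had 18.49 ± 1.53 CPM (SD, n = 5) and 818 windows of more than 100 copies had 5.73 ± 0.51. Over all copies IAP was at 8.90 ± 0.83 CPM in F1 (1226 windows) and 9.87 ± 0.87 in F3 (1271 windows). IAPEz-int, the internal part of the IAP type with the most windows, fell from 19.4 CPM at 1 copy (6 windows) to 12.3 at 2 to 10 copies (20 windows), 7.53 at 11 to 100 (65 windows) and 2.94 ± 0.33 above 100 (629 windows) in F1. In F3 the same steps were 19.4, 19.1, 12.1 and 3.85 ± 0.30.

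Because groups differ in CpG, each level was also divided by the mean of other single-copy windows of the same CpG class. A class held windows with the same number of CpG and a similar number in the 500 bp around. Windows with 5 or more CpG were taken as the same number, and classes with few of these other windows were left out. A ratio of 1 then means the level of ordinary DNA of that CpG class. Over all LTR windows the DMSO ratio was 0.906 in F1 and 0.917 in F3, and over single-copy LTR windows 0.984 and 1.009. Single-copy IAP windows had ratios of 1.322 ± 0.029 (SD, n = 3) in F1 and 1.206 ± 0.049 (SD, n = 5) in F3, while IAP windows of any copy number had 0.673 and 0.640. MERVL rose from 0.652 and 0.695 over all copies to 0.939 and 1.011 at 1 copy. Single-copy MMERVK and MYSERV elements, which are betaretrovirus-like, had 1.111 and 1.102, ETn/MusD 1.123 and 1.045, and gammaretroviral elements 0.978 and 1.077. These ratios were compared after the values were seen and carry no test.

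**Figure D2:**
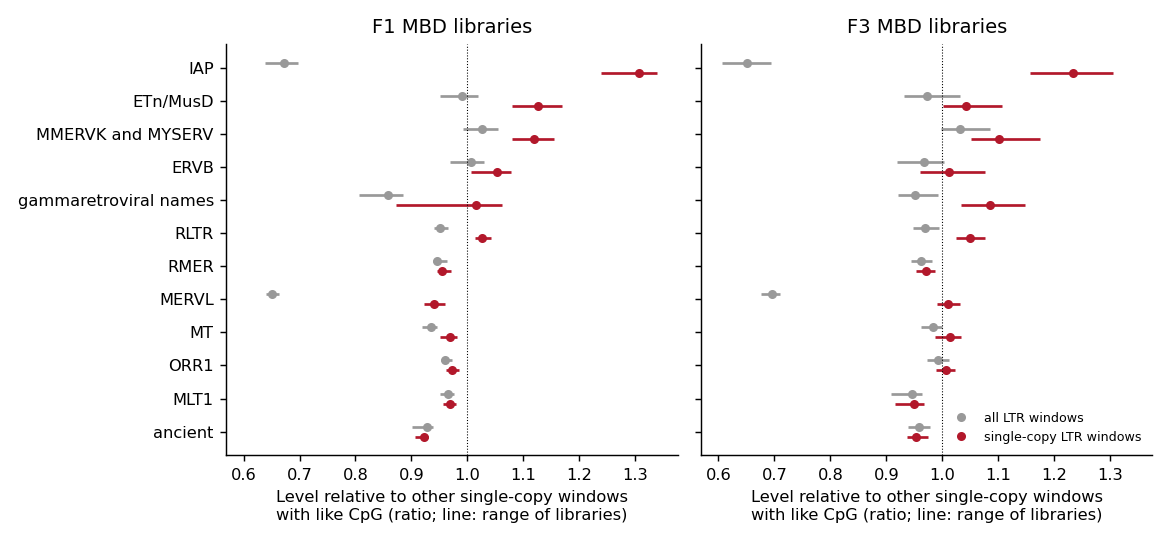
MBD level of 12 LTR groups as a ratio to other single-copy windows with matched CpG number (horizontal axis), for F1 and F3; grey marks all windows of a group and red its single-copy windows, the dot is the mean of the DMSO and TBT group ratios and the line is the range over libraries. Windows with 5 or more CpG were matched as 1 class. Single-copy IAP windows lie above 1 in both generations, while all IAP and all MERVL windows lie below 1.

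By plain level, without matching, the order of the groups followed their CpG only in part. IAP windows held the most CpG in F1, 2.42 on average, yet at 8.90 CPM they stood below gammaretroviral elements, with 1.59 CpG, and MERVL was lowest although its 0.732 CpG exceeded those of MT and ORR1, 0.625 and 0.570. Gammaretroviral elements had 9.51 ± 0.78 CPM per window in F1 DMSO (211 windows) and 11.2 ± 0.60 in F3 (246 windows). ERVB elements had 9.13 and 9.49, ETn/MusD 8.72 and 9.36, and RLTR as well as MMERVK and MYSERV names each 7.38 in F1. At the low end stood ORR1 with 5.51 and 5.05 CPM (3551 and 3688 windows), MT with 5.78 and 5.27 (3760 and 3959 windows) and MERVL with 4.64 and 4.70 (1039 windows in each generation). ERVB lay within the SD of the gammaretroviral group in F1. With 1 CpG and 1 copy, IAP windows had 12.9 ± 0.66 CPM in F1 (31 windows) and 11.8 ± 0.83 in F3 (24 windows), compared with 6.94 and 6.54 for MT and 6.52 and 6.07 for ORR1. The 500 bp around those IAP windows held 7.81 (F1) and 6.50 (F3) CpG on average, against 3.90 and 3.89 around MT windows.

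Among single species several IAP repeats stood above ordinary DNA of their CpG class, in which windows of 5 or more CpG were not told apart by number. IAPEY2_LTR had 25.6 CPM per window in F1 (37 windows, mean 4.11 CpG) and 31.4 in F3 (17 windows, 5.35 CpG), and its matched ratios over all copies were 1.51 and 1.36. IAPEY_LTR had ratios of 1.57 and 1.31, IAPEY3-int 1.43 and 1.28, and IAPLTR2b 1.25 and 1.10, whereas IAPLTR1_Mm had 0.661 and 0.539. The lowest of the large species were IAPEz-int, at 0.303 and 0.337, and MERVL-int, at 0.276 and 0.253. Outside IAP, ETnERV3-int had 1.60 and 1.29, and RLTR17B_Mm had 1.35 (302 windows) and 1.25 (296 windows). RLTR11A shows how 1 window can set a mean, since its ratio was 0.816 in F1 and 1.79 in F3, each over 77 windows, and a single F3 window stood at 413 CPM.

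Of the 8 species with the most windows in F1, all but IAPEz-int (720 windows) were MaLR elements. MTD, with 921 F1 and 965 F3 windows, had 6.27 ± 0.09 CPM in F1 DMSO and 6.19 ± 0.19 in TBT, and 5.56 ± 0.19 and 5.51 ± 0.29 in F3. MTEa had 7.43 ± 0.04 and 7.39 ± 0.05 in F1, and ORR1E had 7.40 ± 0.09 and 7.43 ± 0.12, so the groups overlapped in both. MTA_Mm, the youngest MT repeat, had the lowest CpG number of these species, 0.30 in F1, and a low level, 3.05 ± 0.06 in DMSO and 2.88 ± 0.13 in TBT, and it varied more in F3, at 1.89 ± 0.16 and 2.01 ± 0.37. Internal parts that the study follows in RNA spanned a wide range in P6 DNA. MuRRS-int had 13.2 ± 0.59 CPM in F1 DMSO and 15.3 ± 0.31 in F3 DMSO, IAP-d-int had 15.7 ± 1.01 and 13.3 ± 1.48, MMERVK10C-int had 9.83 ± 0.53 and 10.4 ± 0.67, and RLTR1B-int had 10.6 ± 0.54 and 10.2 ± 0.69, while MYSERV6-int was at 5.30 ± 0.09 and 4.15 ± 0.27. RMER3D-int, RMER16-int, MMERVK9C_I-int and ORR1E-int were also low, at 4.27 ± 0.10, 5.83 ± 0.41, 6.38 ± 0.28 and 6.44 ± 0.08 in F1 DMSO, below MTEa.

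The highest single window of F1 lay in an RLTR44-int locus at chr11:34544927-34545121, in an intron of Dock2, a guanine nucleotide exchange factor of leukocytes. Its raw counts were 199, 160 and 205 in DMSO libraries and 253, 273, 210 and 306 in TBT libraries. The next window of the same locus had 125, 101 and 126 against 161, 172, 128 and 190. After scaling for depth the TBT libraries were lower, by a log2 fold change of −0.32 ± 0.14 (SE) and −0.33 ± 0.14, and neither passed the test (edgeR FDR 0.974 for both). These windows put RLTR44-int at 42.4, 43.5 and 42.1 CPM per window in F1 DMSO and at 35.2, 34.4, 43.4 and 33.3 in TBT libraries 4 to 7 over 15 windows. TBT library 6, the shallow one, lay with the DMSO libraries. In F3 RLTR44-int had 19.3 ± 0.67 in DMSO and 19.9 ± 2.50 in TBT over 19 windows.

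The highest F3 windows did not pass the test either. The RLTR11A window had 521, 518, 506, 516 and 517 counts in DMSO libraries and 500, 510 and 525 as the lowest, median and highest of 7 TBT libraries, and its log2 fold change was 0.01 ± 0.07. These counts hardly varied while the totals ran from 1105120 to 1556376, so they did not follow depth, and no effect of exposure, or lack of one, can be read from them. Only 49 bases of the window lie in the LTR locus. The MTD window in an intron of Sfi1, a centrosome protein gene, had 424, 407, 373, 407 and 347 counts in DMSO and 307, 331 and 443 in TBT, with a log2 fold change of −0.13 ± 0.08 (edgeR FDR 0.966). The groups of the MTD window overlapped in raw counts but not in CPM, where TBT was lower, at 263.2 to 296.6 against 303.2 to 326.7 in DMSO. Of all tested F3 windows 0.168% separated in this direction, but so did 3 of the 28 windows with means above 100 counts, the class of this window. The RMER19C window in an intron of Sp140, a nuclear body protein of lymphoid cells, had 201, 238, 204, 201 and 175 counts in DMSO and 181, 195 and 214 in TBT.

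Counts of the highest F1 windows rose less than the totals. Over the 4 F1 LTR windows with a mean above 100 counts, log2 count rose by 0.49 per unit of log2 total, and all 4 were lower in TBT at an unadjusted p under 0.05. Over all 23 F1 windows of that height the slope was 0.56, and 15 passed that level, all lower in TBT, so this is not particular to LTR windows. In LTR windows with means of 5 to 10 counts the slope was 1.00. The F1 TBT libraries other than library 6 are the deepest, so the low slope and the exposure cannot be told apart at windows above 100 counts. In F3 the slope also varied with height, from 2.84 in LTR windows under 5 counts to 0.02 in those of 20 to 50, −0.33 in those of 50 to 100 and 0.41 in the 4 above 100.

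The share of all counts that fell in LTR windows overlapped between exposures. The F1 shares were 13.32%, 13.31% and 13.47% in DMSO and 13.26%, 13.39%, 13.42% and 13.39% in TBT, a difference of −0.003204 percentage points that ran from −0.0299 to 0.04675 when single libraries were left out. In F3 the shares were 13.64% to 13.83% in 5 DMSO and 13.59% to 13.94% in 7 TBT libraries, a difference of 0.0536 percentage points that ran from 0.02709 to 0.089 when single libraries were left out and was −0.04324 over single-copy windows. In each of the LTR groups the level of the TBT libraries overlapped that of the DMSO libraries.

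No LTR window passed an FDR of 0.05 between TBT and DMSO in either generation. After a filter on low counts 4535 F1 LTR windows (21.72%) and 6446 F3 LTR windows (29.07%) were tested, each within a fit of the whole table. In F1, 0 of 4535 were called, against 0.0318% of all 34559 tested windows (11 windows; 0.00579% higher and 0.026% lower), a count that ran from 0 to 12 when single libraries were left out, and 213 had an unadjusted p under 0.05, 4.70% compared with 5.01% of all tested windows. DESeq2 also called 0, and 66 passed the same unadjusted level. In F3, 0 of 6446 were called, against 0.0% of 47563 tested windows, and 365 (5.66%, against 5.19%) had an unadjusted p under 0.05. DESeq2 called 0 there, while 146 of 6446 passed that unadjusted level, against 915 of all 47563 tested windows. The smallest FDR of an LTR window was 0.1765 in F1 and 0.7454 in F3. The F1 count rested on TBT library 6 and on the filter. Without that library 2 LTR windows were called, both lower in TBT. They were the MTA_Mm window at chr4:3089301-3089400 (edgeR FDR 0.000914) and an RLTR26C_MM window at chr9:24541801-24541900 (edgeR FDR 0.0213). In that fit 12 of all 49105 tested windows were called, all lower in TBT. Every TBT library left in it was deeper than every DMSO library, so depth and exposure cannot be told apart there. Raw counts of the RLTR26C_MM window were 71, 63 and 68 in DMSO and 84, 81, 68 and 84 in TBT libraries 4 to 7. With all libraries and a mean of at least 20 counts, an MT-int window on chromosome 18 was called (edgeR FDR 0.0311). In that fit 11 of 9408 windows were called.

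The median 95% interval of an LTR window reached 0.57 to either side on the log2 scale in F1 and 0.42 in F3 (unadjusted), and single windows had narrower or wider ones. Of the tested F1 LTR windows, 171 (3.77%, against 3.53% of all tested windows) had every TBT library above every DMSO library in CPM, and 129 (2.84%, against 3.16%) had every TBT library below. In F3 these were 6 windows (0.0931%, against 0.0862%) and 12 windows (0.186%, against 0.168%). The shares of LTR windows were thus near the background in every case.

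**Figure D3:**
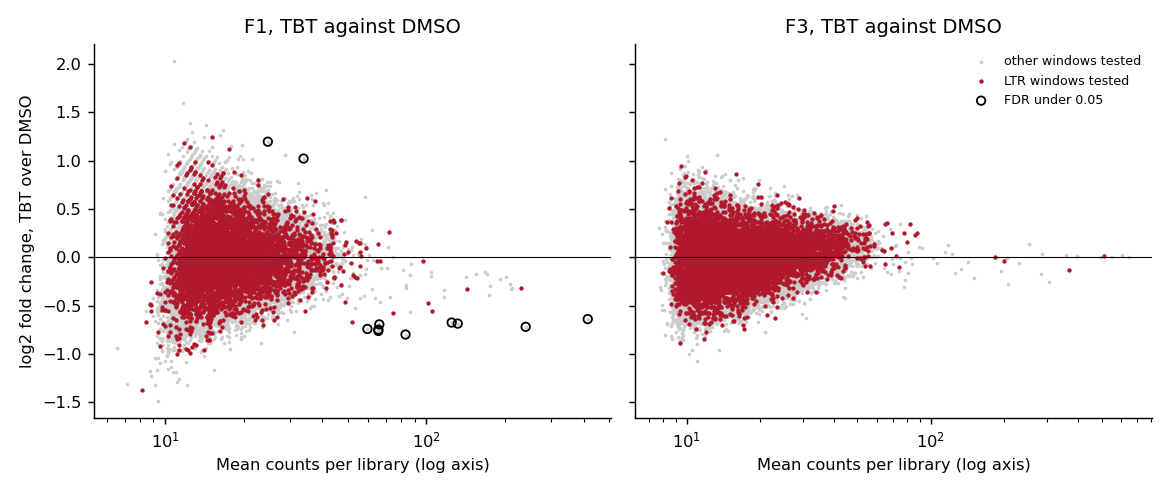
Log2 fold change of TBT over DMSO (vertical axis) against mean counts per library (horizontal axis, log scale) for every tested window of F1 and F3; red marks LTR windows, grey the remaining windows, and circles the windows past FDR 0.05. No circle falls on an LTR window, and the 5th and 95th percentiles of LTR windows are −0.49 and 0.49 in F1 and −0.36 and 0.37 in F3.

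The LTR windows with the smallest p are given as values only. In F1 the IAPEz-int window at chr10:47681101-47681200 had 9, 4 and 3 counts in DMSO and 24, 22, 18 and 26 in TBT, with a log2 fold change of 1.25 ± 0.35 (edgeR FDR 0.4645). Its groups did not overlap, but it holds a stretch with 348 copies in the genome. An RMER12 window at chr16:91517901-91518000, single-copy and without CpG, had 6, 10 and 4 counts in DMSO and 32, 24, 13 and 34 in TBT (1.12 ± 0.32, edgeR FDR 0.527). The MTA_Mm window at chr4:3089301-3089400 had 94, 92 and 100 counts in DMSO and 112, 122, 104 and 114 in TBT, which is lower on average per total count (−0.55 ± 0.14, edgeR FDR 0.2274). The groups of this window overlapped, at 59.58 to 117.2 CPM in TBT against 100.1 to 131.1 in DMSO. It has no CpG, 38 of its bases in the locus and a stretch with 379 copies. An MT-int window on chromosome 18 with 2 CpG had 55, 33 and 58 counts in DMSO and 59, 62, 15 and 80 in TBT, which per total count is lower in every TBT library than in any DMSO library (−0.67 ± 0.17, edgeR FDR 0.1765). It holds a stretch with 199 copies.

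In F3 the smallest p belonged to an RLTR12H window at chr7:6517201-6517300, in an intron of the olfactory receptor gene Olfr1349, with 15, 9, 12, 13 and 5 counts in DMSO and 10, 19 and 28 as lowest, median and highest in TBT (0.86 ± 0.23). The IAPLTR1_Mm window at chr7:89568601-89568700 had 15, 21, 9, 11 and 14 counts in DMSO and 18, 22 and 31 in TBT (0.76 ± 0.20). On the lower side stood neighbouring windows of 1 RMER16 locus at chr6:39120508-39120828, in an intron of 4930599N23Rik. The window at chr6:39120601-39120700 had 28, 28, 18, 19 and 20 counts in DMSO and 8, 14 and 18 in TBT (−0.74 ± 0.20), and the window at chr6:39120501-39120600 had 33, 36, 24, 30 and 23 against 12, 18 and 25 (−0.63 ± 0.18). The edgeR FDR of all these F3 windows was 0.7454, and in CPM the groups of each overlapped.

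IAP windows of F3 leaned toward TBT within the spread of the libraries. Of 572 tested IAP windows 54 had an unadjusted p under 0.05 (9.44%, against 5.19% of all tested windows), 48 of them higher in TBT, and the median log2 fold change was 0.11, against 0.01 over all tested windows. The level of all IAP windows was 9.87 ± 0.87 CPM in DMSO and 10.49 ± 1.67 in TBT, a log2 ratio of 0.088, and the groups overlapped. IAP windows hold a mean of 2.496 CpG, and other windows had log2 ratios of −0.029 with 2 CpG and 0.0046 with 3, rising to 0.091 with 6 and 0.10 with 7 or more. Whether IAP windows differ from other windows of their CpG number was not tested. The mean CpG per counted read, which varied more in F3 TBT (1.238 to 1.545) than in DMSO, runs with the level of CpG-rich windows, and its part was not tested. In F1, 25 of 476 tested IAP windows had an unadjusted p under 0.05 (5.25%, against 5.01%), 16 of them higher.

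Few windows allow a comparison of the generations, since the tables share 943 windows, 130 of them LTR windows. Across those 130, the mean levels of F1 and F3 followed each other (Spearman's rho 0.95, a description over windows that share their sequence and CpG number). The difference between the F3 and F1 effects of TBT was tested at 347 windows, 50 of them LTR windows. None was called, against 0.0% of all, and 4 of the 50 LTR windows had an unadjusted p under 0.05, as did 17 of all 347 windows (4.9%).

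At the level of species, 9 of the 333 F1 species with at least 10 windows had every TBT library above every DMSO library and 8 had every TBT library below, and log2 ratios ran from −0.33 to 0.45. Among single windows 3.53% and 3.16% of all tested separated in these directions, and the 9 and 8 species are no larger a share. In F3 none of 343 species separated the groups, with log2 ratios from −0.26 to 0.39. Of the species named here, IAPEY4_I-int was among the 9, at 9.001, 9.69 and 10.2 CPM in DMSO and 10.6, 10.5, 11.3 and 10.7 in TBT over 20 windows, a log2 ratio of 0.16. In F3 IAPEY4_I-int had 12.7 ± 1.14 and 12.7 ± 1.81 CPM over 35 windows. IAPEz-int had 3.49, 3.58 and 4.199 CPM in F1 DMSO and 3.72, 3.74, 4.19 and 3.84 in TBT, and 4.90 ± 0.41 against 5.14 ± 0.78 in F3, so its groups overlapped in both.

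The relation of window level to RNA was examined across species in P6 cells, with RNA as CPM per kilobase of locus. In these bulk samples fewer cells of a type and less RNA per cell cannot be told apart, and the libraries are not said to keep strand, so reads of a gene and of an LTR locus inside it cannot be told apart either. Across 584 F1 species the level of MBD windows and of RNA went in opposite directions, weakly (Spearman's rho −0.207, Pearson's r of log2 values −0.265), as across 585 F3 species (−0.239 and −0.260). With RNA taken from loci outside genes alone, rho was −0.013 in F1 and 0.056 in F3. With RNA from the loci that hold a window it was 0.017 and 0.033, and with the MBD level per CpG it was 0.148 (545 species) and 0.018 (548 species). The relation was thus near 0 without loci inside genes, and it turned in sign with other choices. Among species with at least 10 windows (333 and 343) the relation kept its size, with rho −0.225 and −0.234. Over the same species the MBD level followed CpG number with rho 0.766 and 0.830 while RNA went against it with rho −0.300 and −0.281, and the part of CpG content in the relation was not tested.

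**Figure D4:**
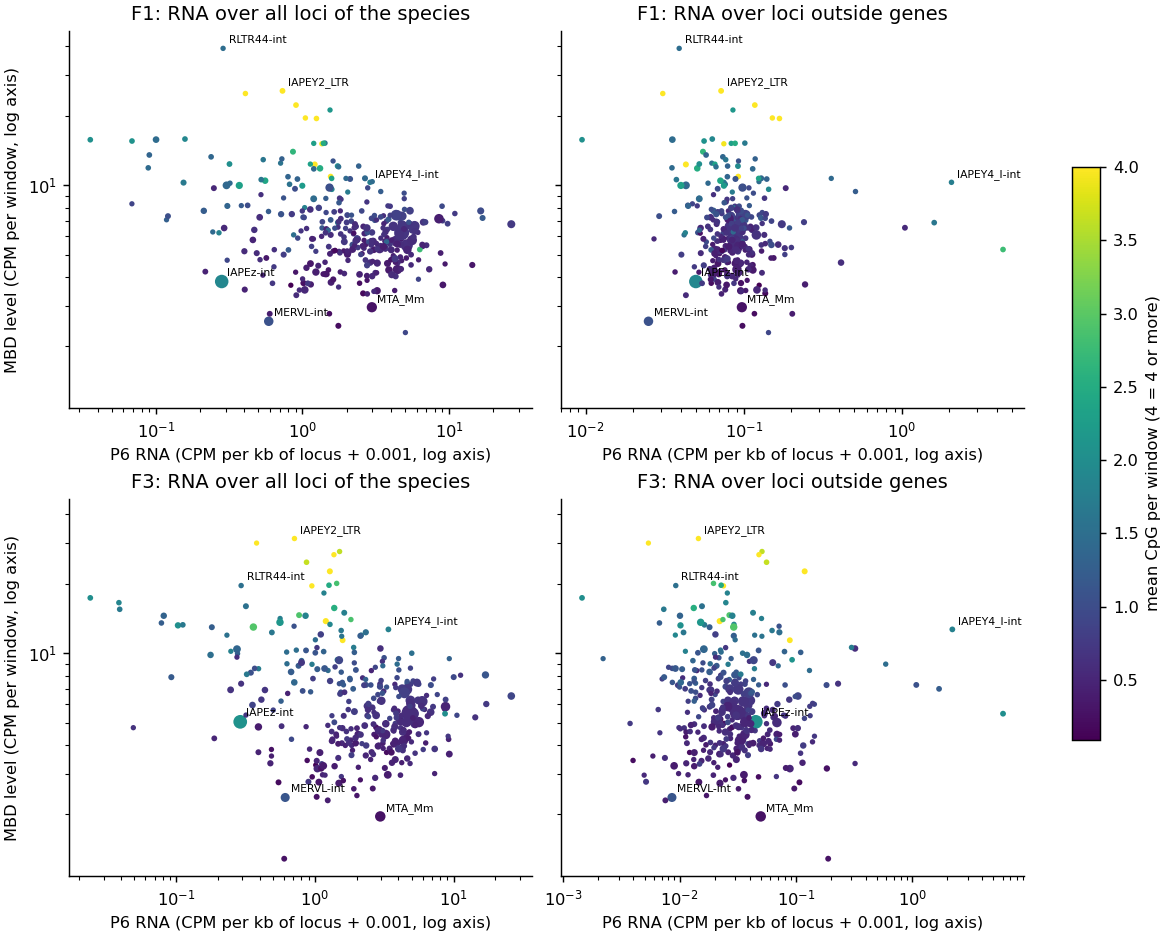
MBD level in CPM per window (vertical axis) against P6 RNA in CPM per kilobase (horizontal axis), both on log scales, for F1 and F3, with RNA from all loci or from loci outside genes; each point is 1 LTR species, its size rises with the number of windows and its color with the mean CpG number. The weak slope over all loci (rho −0.207 and −0.239) is not seen outside genes (rho −0.013 and 0.056).

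RNA levels of most groups were far lower once loci inside genes were left out. MT, ORR1 and MLT1 loci had 4.00, 4.02 and 5.08 CPM per kilobase in F1 P6 RNA over all loci, but 0.092, 0.093 and 0.094 over loci outside genes. IAP loci had 0.418 over all loci and 0.089 outside genes in F1, and MERVL 5.44 and 0.087. With RMER at 0.084 outside genes, these groups lay so close together in F1 that no order is read from them. In F3 IAP had 0.0751 outside genes, above the 0.0382 of MT, 0.0389 of ORR1 and 0.0320 of MLT1. F1 libraries held fewer reads (2824806 to 3830400) than F3 libraries (4104928 to 7760769), so a change in the rank of IAP between generations cannot be read from these levels. Of the groups, ERVB had the highest level outside genes in F1, 0.278, with 1.18 over all loci. Window and RNA changes with TBT were unrelated across species in description, with rho between log2 ratios of −0.064 in F1 and −0.026 in F3.

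Most loci that hold a window gave no reads outside genes. No read was found in any P6 library at 71.8% of the 11900 such loci of F1, compared with 90.9% of 12749 in F3, and all LTR loci outside genes gave 78.8% and 94.0%. A mean of at least 5 read units was reached at 49 (0.412%) and 73 (0.573%) of them, compared with 0.1274% and 0.2018% of all LTR loci outside genes, where a unit is the CPM that 1 read is worth in the median library. Loci with a window were longer, with means of 769.4 bp in F1 and 746.3 bp in F3 against 345.1 bp over all. Inside introns 23.9% of 5962 F1 loci and 28.6% of 6061 F3 loci reached that level, compared with 25.53% and 30.33% of all intron loci. Single-copy intron windows in loci of that level were not lower than those in loci without a read in 7 of the 8 CpG classes compared. With 1 CpG the median was 6.68 CPM at loci with reads and 6.04 at loci without in F1, and 6.97 and 5.03 in F3, and only with 3 or more CpG in F3 was it lower, 15.6 against 17.1. Outside genes few windows lay in loci of that level, 59 in F1 and 85 in F3, of which 11 and 28 were single-copy. Over all copies the CpG-poorer of them had higher medians than windows in loci without a read, and the CpG-richer lower ones. Without CpG the median was 5.785 CPM against 2.998 in F1 and 3.397 against 1.842 in F3. With 1 CpG it was 6.384 against 5.377 and 5.113 against 4.526. With 3 or more CpG the median was 6.643 CPM (10 windows) against 13.57 in F1 and 10.5 (23 windows) against 16.13 in F3, and with 2 CpG it was 6.435 (12 windows) against 9.229 and 2.466 (13 windows) against 9.1. Fewer of these CpG-richer windows were single-copy than in loci without a read. With 2 CpG the shares were 8.333% against 77.21% in F1 and 23.08% against 74.93% in F3. With 3 or more CpG they were 10% against 50.68% and 30.43% against 48.41%. The single-copy windows in loci of that level were too few to show an order. With 3 or more CpG these had a median of 20.92 (7 windows) against 16.36 in F3 and 14.26 (1 window) against 14.45 in F1, and with 2 CpG 4.457 (3 windows) against 9.443 in F3 and 16.53 (1 window) against 9.813 in F1.

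By CPM per locus, not scaled to length, the most transcribed LTR locus outside genes among those named was an IAPEY4_I-int element at chr7:48124450-48132115. Its RNA was 458 ± 52.0 CPM in F1 DMSO (SD, n = 5) and 434 ± 172 in TBT (SD, n = 7), and 461 ± 32.5 and 473.5 ± 104.5 in F3, so the groups overlapped. Its F1 window at chr7:48130801-48130900, without CpG and with 16 copies, had a mean of 2.32 CPM, and its F3 window at chr7:48126601-48126700, with 4 CpG and 14 copies, had 5.78 CPM. Nearby, an IAPLTR3 repeat at chr7:48157360-48157685 had 41.5 CPM of RNA in F1, which per kilobase is more (127.3, against 57.9 for the IAPEY4_I-int element), and a window with 7 CpG and 33 copies at 24.96 CPM, so its window counts need not come from this locus alone.

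Other loci outside genes, each with less RNA per kilobase than the IAPLTR3 repeat, had high or low windows. In F1 an ORR1D1 repeat at chr15:99728296-99728624 had 15.6 CPM of RNA with a window of 12.5 CPM, which at chr15:99728201-99728300 overlaps the repeat only by its last few bases, and a MERVL_2A-int locus at chr7:71709618-71710107 had 7.89 and 9.19. In F3 an ERVB4_1C-LTR_Mm repeat at chr7:142290588-142291092 had 19.1 CPM of RNA and a window of 4.46, a MER34 repeat at chr13:100701521-100701654 had 4.93 and 17.3, and an MMVL30-int element at chr14:32117142-32119968 had 84.8 and 0.456, its window having 38 copies.

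RNA at loci that hold a window was compared between exposures with limma on log2 values. In F1, 0 of 1560 tested loci were called, against 0.00341% of all 88037 tested (3 loci, or 0 to 14 when single libraries were left out, the most without TBT library 11), and 58 had an unadjusted p under 0.05 (3.72%, against 3.68%), while edgeR on recovered reads also called 0. Without TBT library 11, 100 of 1567 loci passed that unadjusted level, as did 5057 of all 88381 tested. In F3, 2 of 1896 were called (0.1055%), against 0.0343% of all 104835 tested (36 loci, from 12 without TBT library 6 to 145 without DMSO library 2), and 151 (7.96%) had an unadjusted p under 0.05, the same share as over all loci. On recovered reads edgeR called 3 of the 1896, against 61 of all 104835 tested. The 3 were the 2 below and an ETnERV3-int locus on chromosome 1, outside genes (edgeR FDR 0.0381, limma FDR 0.176).

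The locus that fell, against 0.0143% of all tested loci called lower, was an MMVL30-int element, of the VL30 retrotransposons, at chr4:149434582-149437410 outside genes. Its F3 RNA was 37.7, 33.8, 39.4 and 41.0 CPM in DMSO and 20.6, 13.4, 24.1, 23.2 and 20.2 in TBT, with no overlap. The log2 fold change, on the scale of log2(CPM + 1 unit), was −0.92 ± 0.14 (limma FDR 0.0112), and the call held in every alternative run. Its window at chr4:149434601-149434700, with 1 CpG and 10 copies, had 6.21 ± 2.00 CPM in F3 DMSO and 6.40 ± 0.93 in TBT, within the spread, and was too shallow to be tested. Leydig cell markers, summed over LTR loci in 2 of 5 marker genes, were at 36.5 to 62.8 CPM in F3 DMSO and at 25.2 to 36.6 in TBT, neither gene being at 0, and their part in the result was not tested.

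The locus that rose, against 0.02% called higher, was a MamGypLTR1b fragment of 76 bp at chr16:33748733-33748808, in an intron of Heg1, a transmembrane receptor of endothelial cells and the heart. Its F3 RNA was 1.39, 2.03, 1.24 and 1.38 CPM in DMSO and 4.96, 4.92, 4.37, 5.38 and 5.12 in TBT, again without overlap. The log2 fold change was 1.61 ± 0.27 (limma FDR 0.0211), and the FDR was 0.0640 to 0.110 when any 1 TBT library was left out. Endothelial markers, summed over LTR loci in 4 of 4 marker genes, were at 96.0 to 129.2 CPM in F3 DMSO and at 127.9 to 159.9 in TBT, none of the 4 genes being at 0, and their part in the result was not tested. The window at chr16:33748701-33748800, with 2 CpG, had 11.3 ± 0.95 CPM in DMSO and 11.96 ± 3.401 in TBT, within the spread.

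**Figure D5:**
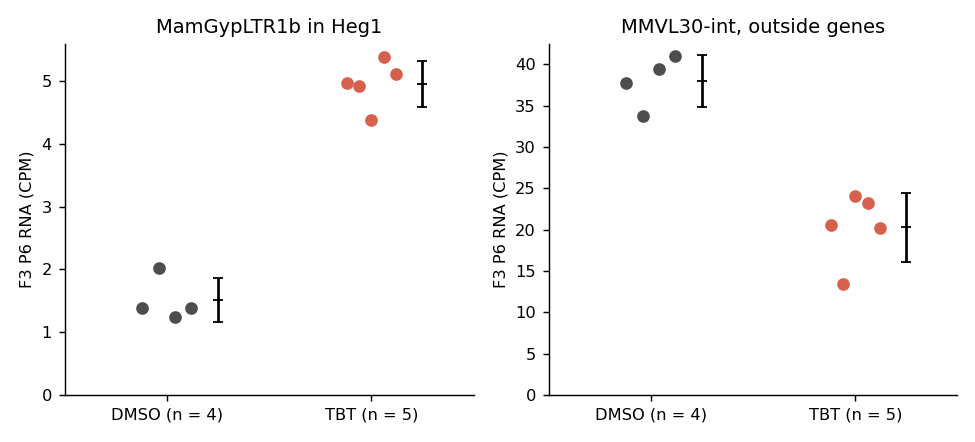
F3 P6 RNA of the 2 loci called, in CPM (vertical axis); each point is 1 library (4 DMSO, 5 TBT) and the bars beside them are mean and SD. The MMVL30-int locus separates the groups with TBT lower (13.4 to 24.1 against 33.8 to 41.0) and the MamGypLTR1b locus with TBT higher (4.37 to 5.38 against 1.24 to 2.03).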

How the data were processed

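MBD-seq was read in 19 P6 libraries and RNA-seq in 21 P6 libraries. The deposited MBD values are unnormalized counts in 100 bp windows with the CpG number of each, and those of RNA are the signal of each LTR locus in CPM as scaled by the authors, on mm10. Submitters' processing notes name Trim Galore, STAR and edgeR. The MBD aligner and the choice of windows are not given in the sources used here. The input-based scaling of the study (QSEA) was not repeated.

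Locus starts were counted from 0 and moved by 1 base, because the 5′ TG of IAP repeats then fell in place. TMM-scaled window counts that passed filterByExpr were fitted in edgeR 4.0.16 (quasi-likelihood), with calls at a Benjamini-Hochberg FDR of 0.05 over the whole table, with DESeq2 1.42.0 as an alternative. All deposited CPM values were whole multiples of what 1 read is worth in their library (100% within a tolerance of 0.01), with a median over libraries of 0.2936 CPM in F1 and 0.197 in F3. Loci with a mean of at least 5 of these median units were tested with limma 3.58.1 (trend) on log2(CPM + 1 unit), and recovered reads with edgeR, in R 4.3.3. Copies were counted in GRCm38 with Python 3.11.15. The tests were tested on simulated data. Sequences were read from GRCm38.

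Members and lists were chosen with earlier results of these data known. Named windows were those past FDR 0.05 whose groups did not overlap, otherwise up to 2 per direction by smallest p, and the 3 highest per generation. Named species were the 8 with most windows and those the study names, and named loci those called or, outside genes, the 4 highest per kilobase. Counts without unique molecular identifiers give counting error only.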

Additional observations from a re-analysis of the deposited data

Results flagged for a closer look

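In 120 groups of 4 to 7 libraries looked at, 2 held a library far from the others by Dixon's criterion, which chance meets in about 1 in 20 groups. In F1 TBT library 5, windows of LTR names outside the named groups took 0.5785% of all counts, against 0.5526% to 0.557% in the other 3 TBT libraries. In F3 TBT library 8, MTA_Mm windows had 2.778 CPM per window, against 1.736 to 2.159 in the other 6 TBT libraries. That library also had the lowest mean CpG per counted read (1.238), and MTA_Mm windows hold few CpG (0.282 on average). Whether these move together for a technical reason was not tested.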

How the results depend on the processing

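The number of F1 LTR windows called was 0, and it became 1 with a mean of at least 20 counts and 0 to 2 when single libraries were left out. The 2 were called without TBT library 6, where depth and exposure cannot be told apart. The number stayed 0 under the other scalings, filters, tests and overlap rules. F3 LTR windows called stayed 0 under all 25 alternatives, and the difference between generations under all 21. Loci with a window called in F1 RNA stayed 0 under 18 alternatives, and in F3 RNA they went from 2 to 1 with a mean of at least 20 units and ran from 1 to 2 when single libraries were left out, while edgeR on recovered reads called 3. Without TBT library 6 the MamGypLTR1b call gave way to that of an RLTR13D3A1 locus in Ccdc40 (limma FDR 0.0345, otherwise 0.1901 to 0.6185). The correlation of MBD level and RNA across F1 species became −0.01281 with loci outside genes, 0.01696 with loci that hold a window, 0.1479 per CpG, and, chosen after seeing the data, −0.04513 for species of at least 10 windows outside genes and −0.002674 for species mostly single-copy. In F3 these were 0.05627, 0.03285, 0.01809, −0.07179 and 0.0787. It was kept, at −0.2252 and −0.2337, for species of at least 10 windows. Calls over all windows of F1 went from 11 to 0 without a filter or with DESeq2, to 6 without windows above 100 counts, to 0, 1 and 6 without DMSO library 2, 1 or 3, and to 2, 3, 12 and 6 without TBT library 4, 5, 6 or 7. Alternatives for locus starts and single-copy windows were also chosen after seeing the data. No paired analysis was possible because the groups compared share no replicate numbers. Depth limits what single windows and loci of few reads can show, and at single windows some changes whose unadjusted interval excluded 0 failed the FDR.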
